A study of Homo sapiens with 12 samples.

Results

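The 10 genes described here encode parts of the basement membrane, the thin sheet of matrix on which epithelial cells sit. They are the collagen IV chains COL4A1, COL4A2, COL4A5 and COL4A6, the laminin chains LAMA5, LAMB1 and LAMC1, the linker NID1, the proteoglycan HSPG2 and the collagen-binding protein SPARC. They were taken by symbol from the table of 46931 genes, and each has 1 entry on a chromosome. The measurement was RNA sequencing of MCF10A, an immortalised human mammary epithelial line with no further genetic change in the labels, in 12 libraries. All cells were transfected, either with a negative control siRNA at 22 nM (siC) or with 2 siRNA sets at 11 nM against YAP and TAZ (siYT, called the knockdown here). After 48 h both received fresh medium with DMSO or with 5 µM XMU-MP1, an inhibitor of the kinases MST1 and MST2, and were harvested 6 h later. This gives the 4 groups siC_DMSO, siC_XMU, siYT_DMSO and siYT_XMU, each with 3 libraries lettered a, b and c. The model is 1 cell line with transient silencing, all the cells had been through transfection, and the labels do not state whether the letters stand for separate cultures. The p-values therefore measure the spread between these samples, which may be technical.

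Collagen IV chains assemble inside the cell into triple-helical protomers, which then join into a network outside it. The α1 and α2 chains, from COL4A1 and COL4A2, share the protomer found in nearly all basement membranes, and the α5 and α6 chains, from COL4A5 and COL4A6, share another that epithelia also use. A laminin is a cross-shaped trimer of an α, a β and a γ chain. LAMA5, LAMB1 and LAMC1 encode the chains of laminin-511, which binds integrins on epithelial cells. Nidogen-1 and perlecan (HSPG2) tie the laminin and collagen sheets together, and SPARC binds collagen IV. YAP (gene YAP1) and TAZ (gene WWTR1) are transcriptional coactivators that act mainly through TEAD factors, and MST1 and MST2 lie upstream of them in the Hippo pathway.

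The collagen IV genes lie in head-to-head pairs, and the sequence before their start sites is shown because the members of each pair moved in the same direction. The table places COL4A1 (gene ID 1282) at chr13:110148963-110307157 on the minus strand and COL4A2 (1284) at chr13:110307284-110513209 on the plus strand, with 126 bases between them. It places COL4A6 (1288) at chrX:108155607-108439493 on the minus strand and COL4A5 (1287) at chrX:108439838-108697545 on the plus strand, 344 bases apart. SPARC (6678) stands alone at chr5:151661096-151686915 on the minus strand. RefSeq promoter windows of GRCh38.p14, from 250 bases before to 50 after a start, were found for all 10 genes (11 windows, since COL4A6 has 2). In the RefSeq table the COL4A6 start lies 379 bases from that of COL4A5. The 3 stretches below hold bases before the start sites only, read 5′ to 3′. Capitals mark CCAAT (or its reverse ATTGG) and GGGCGG in the collagen stretches, and the reverse of the TEAD core GGAATG in that of SPARC.
COL4A1 and COL4A2, all bases between the starts, chr13:110307158-110307283, plus strand: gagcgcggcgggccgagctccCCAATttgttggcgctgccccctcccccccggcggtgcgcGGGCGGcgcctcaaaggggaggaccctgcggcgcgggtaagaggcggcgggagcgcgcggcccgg
COL4A5, bases on the COL4A6 side of its start, chrX:108439588-108439837, plus strand: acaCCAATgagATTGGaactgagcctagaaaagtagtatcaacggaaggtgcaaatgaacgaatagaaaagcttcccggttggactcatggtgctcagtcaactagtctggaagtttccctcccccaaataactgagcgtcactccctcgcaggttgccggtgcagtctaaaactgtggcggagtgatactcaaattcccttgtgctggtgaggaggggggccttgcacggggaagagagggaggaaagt
SPARC, bases before its start, chr5:151686916-151687165, minus strand: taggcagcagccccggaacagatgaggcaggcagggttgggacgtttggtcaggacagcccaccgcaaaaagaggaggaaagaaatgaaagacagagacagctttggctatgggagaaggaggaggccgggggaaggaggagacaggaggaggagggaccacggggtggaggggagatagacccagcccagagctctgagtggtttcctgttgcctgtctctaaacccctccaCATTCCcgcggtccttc
The pairs differ in base composition. The COL4A1 and COL4A2 windows were 76.7% and 77.7% G and C, against a median of 58.7% over the 35116 promoter windows of full length, while COL4A5 had 49.3% and the COL4A6 windows 43.7% and 50%. The stretch between COL4A1 and COL4A2 holds 1 CCAAT and 1 GGGCGG, letters present on either strand in 34.6% and 45% of all windows. GGAATG, searched on both strands, occurred in the SPARC window alone among the 11, 17 bases before the start, and in 14.0% of all windows. TGANTCA, the AP-1 letters found in 7.71% of windows, and TATAAA, found in 11.5%, were in none of the 11. These matches describe letters and are not binding sites. The motifs were chosen after the expression values had been seen.

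Depth was 25246464 to 67953633 counts per library except in library c of siYT_XMU, which had 8243351 counts, 15135 genes with a count against 17950 to 20704 elsewhere, and 35% of its counts in ribosomal RNA. That share was 1.02% to 2.52% in the control siRNA libraries and 1.86% to 8.35% in the other knockdown libraries. Counts of called genes in the knockdown with XMU-MP1 are given with and without library c. Marker sums, counts of non-overlapping groups, likeness, neighbouring genes and the main ratio tests include it. YAP1 was at 132 to 223 CPM (counts scaled to library size, with TMM) in the control siRNA libraries and at 3.81 to 12.6 after knockdown, and WWTR1 at 24 to 60.3 and 0 to 4.47, with no overlap. The knockdown lowered YAP1 20.9-fold in DMSO and 25.9-fold in XMU-MP1, and WWTR1 7.8-fold and 43-fold. In knockdown cells both were lower with XMU-MP1 than with DMSO (log2 -0.90 and -1.62, edgeR adjusted p = 0.0221 and 0.0463). All 11 markers of basal mammary epithelium averaged at least 1 CPM in every group, whereas the 4 markers of contractile myoepithelium summed to 6.46 to 21.9 CPM over the groups, with 2 of them, MYH11 and CNN1, at 0 counts in all 12 libraries. The 8 endothelial markers summed to 0.918 to 9.32 CPM, with 4 to 6 of them having a count in a group and EMCN at 0 in all libraries.

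In control cells with DMSO, the α2 chain of collagen IV and the laminin-511 chains had the most RNA per length among the 10 genes. On the scale of CPM per kb of the longest coding transcript, the level of COL4A2 was 40.3 ± 7.73 (SD, n = 3), of LAMB1 34.6 ± 2.43, of LAMA5 30.5 ± 4.54 and of LAMC1 28.5 ± 3.24, and neighbours in this order overlapped between libraries. COL4A1 followed at 13.9 ± 5.18 and SPARC at 11.4 ± 4.94, also overlapping with each other but with every COL4A1 library below every LAMC1 library. HSPG2 at 5.79 ± 0.878, COL4A5 at 5.57 ± 0.601 and COL4A6 at 4.81 ± 0.882 overlapped with one another. NID1 came last at 0.0118 ± 0.0204. The rank of COL4A1 depends on its transcript length: the deposited FPKM imply a length of 16.3 kb for it, against 6.62 kb for its longest GENCODE coding transcript, so its FPKM are low beside those of other genes.

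After knockdown in DMSO the order was different. LAMC1 stood at 14.9 ± 3.30 CPM per kb and LAMA5 at 13.2 ± 0.577, followed by COL4A5 at 10.8 ± 1.26, HSPG2 at 10.1 ± 0.390 and LAMB1 at 8.57 ± 3.61. COL4A6 was at 7.5 ± 0.924, COL4A2 at 3.22 ± 1.10, SPARC at 2.09 ± 1.24 and COL4A1 at 0.661 ± 0.247. Every knockdown library in DMSO thus held more COL4A5 than COL4A2 RNA per length (9.39 to 11.7 against 1.97 to 4.01 CPM per kb), whereas every control library held more COL4A2 (33.8 to 48.8 against 4.90 to 6.04).

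**Figure D1:**
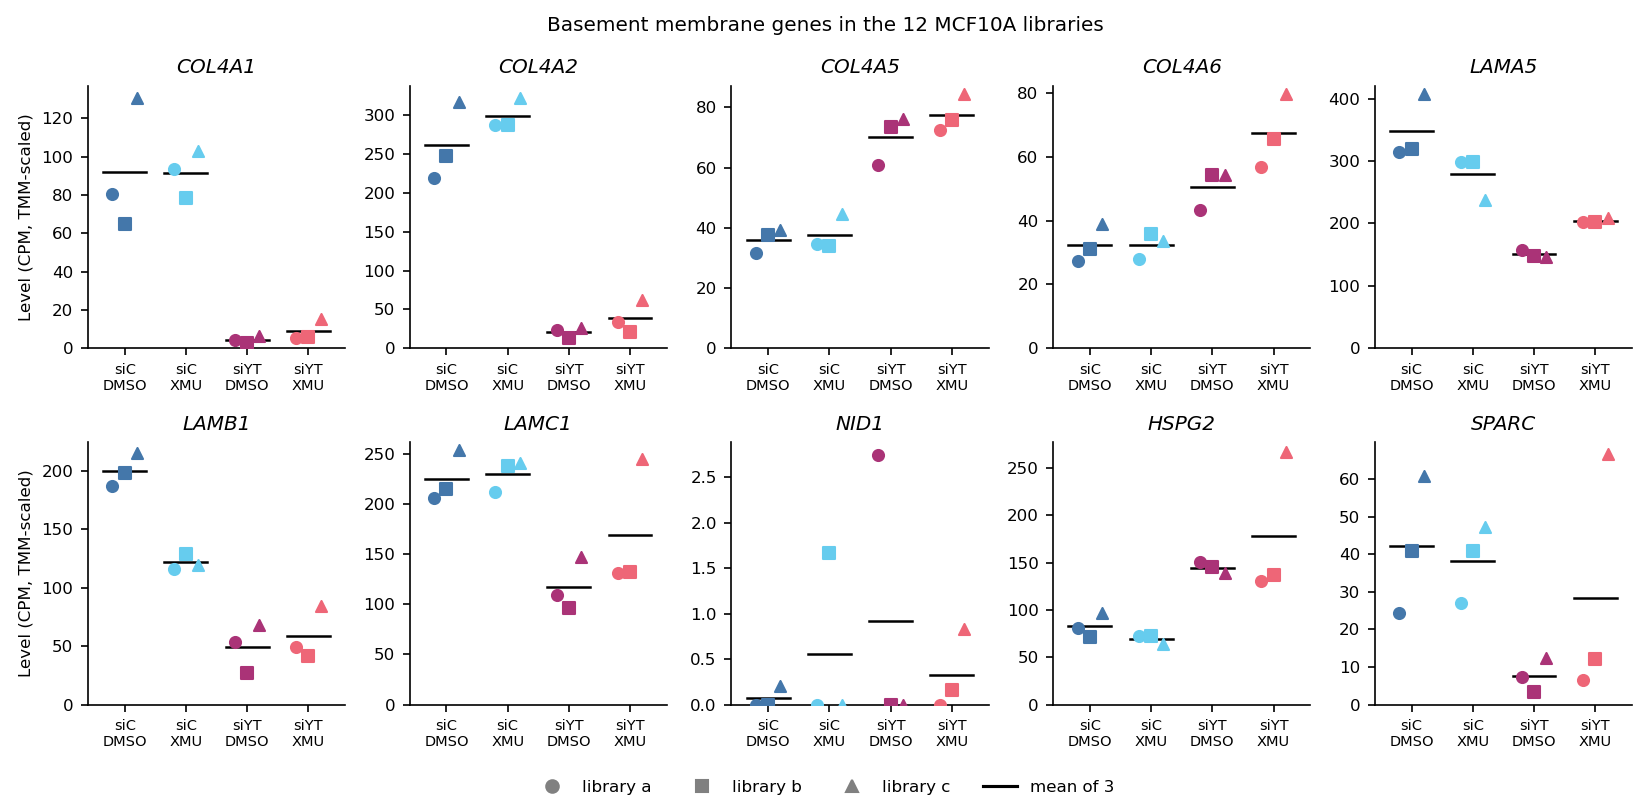
Levels of the 10 genes in CPM (TMM-scaled, linear axes from 0, a scale for each gene) in the 4 groups; each symbol is 1 library, its shape gives the letter, and the bar is the mean of 3. The knockdown groups of COL4A1 lie at 2.90 to 15.1 CPM against 64.7 to 130.4 in the control siRNA groups, COL4A5, COL4A6 and HSPG2 are higher after knockdown, and the triangle of siYT_XMU stands high for SPARC at 66.7 CPM.

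The first comparison asks what silencing of YAP and TAZ did to these genes in DMSO. Of the 10 genes, 6 fell and 3 rose, and NID1 did not pass the test. Over all 18143 genes tested 16.0% fell and 16.1% rose, and the groups of libraries did not overlap for 54.1%, against 9 of the 10. The 9 called genes compare with 32.1% of all genes called in either direction. The median log2 fold change was -1.07 over the 10 genes and 0.02 over all genes. The members were chosen with earlier results known, so these counts describe them and test nothing about them as a set. In bulk RNA, fewer cells of a type and less RNA per cell cannot be told apart.

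COL4A1 and COL4A2 fell most of the 10. COL4A1 stood at 80.5, 64.7 and 130.4 CPM in libraries a, b and c of siC_DMSO, compared with 4.09, 2.90 and 6.14 CPM in siYT_DMSO. The highest knockdown library was far below the lowest control library. The log2 fold change was -4.39 ± 0.46 (SE), that is 20.9-fold lower (edgeR adjusted p = 2.78e-05). COL4A2 went from 219, 248 and 317 CPM to 23.8, 12.8 and 26.0 CPM, again without overlap. Its log2 fold change was -3.65 ± 0.39, 12.5-fold lower (edgeR adjusted p = 3.27e-05). Both remained called in all 21 alternative analyses of this comparison.

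The other collagen IV pair moved the opposite way. COL4A5 stood at 31.7, 37.5 and 39.2 CPM in siC_DMSO, compared with 60.8, 73.5 and 76.1 CPM in siYT_DMSO, so its lowest knockdown library exceeded every control. It rose 1.94-fold (log2 0.96 ± 0.17, edgeR adjusted p = 0.0009). COL4A6 rose 1.56-fold, from 27.4, 31.0 and 39.1 to 43.4, 54.2 and 54.2 CPM (log2 0.64 ± 0.19, edgeR adjusted p = 0.024). Its groups did not overlap, but its call was lost in 7 of 21 alternatives, with log2 values of 0.38 to 0.60 there. COL4A3 and COL4A4, which encode the chains that pair with α5 in the kidney, were barely detected: COL4A3 had 7, 4, 3 and 0 counts in the 4 groups and was not tested, and COL4A4 averaged 0.961 ± 0.311 CPM in siC_DMSO and 0.199 ± 0.0326 in siYT_DMSO (edgeR adjusted p = 0.0691), a fall that was called without siYT_XMU c. In XMU-MP1 it fell, from 0.402 ± 0.137 to 0.0258 ± 0.0447 CPM (70 and 4 counts over the 3 libraries, edgeR adjusted p = 0.0245), with and without siYT_XMU c.

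RNA for all 3 chains of laminin-511 fell. LAMA5, at chr20:62309060-62367318, had 315, 319.8 and 407 CPM in siC_DMSO compared with 158, 148 and 146 CPM in siYT_DMSO, 2.31-fold lower (log2 -1.21 ± 0.15, edgeR adjusted p = 0.000103). LAMB1, at chr7:107923799-108003176, went from 187, 198 and 215 to 53.1, 27.1 and 68.2 CPM. It was 4.04-fold lower (log2 -2.01 ± 0.32, edgeR adjusted p = 0.000512). LAMC1, at chr1:183023420-183145592, went from 206, 215 and 254 to 109, 96.5 and 147 CPM, 1.91-fold lower (log2 -0.94 ± 0.25, edgeR adjusted p = 0.0117). No knockdown library reached a control library for any of the 3. The LAMC1 call was lost without library b of siYT_DMSO (log2 -0.82, edgeR adjusted p = 0.054).

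RNA for the proteins that bind to the collagen and laminin sheets moved in different directions. HSPG2, at chr1:21822244-21937310, had 80.5, 71.5 and 96.3 CPM in siC_DMSO compared with 150.3, 145 and 139 CPM in siYT_DMSO, and rose 1.75-fold (log2 0.81 ± 0.24, edgeR adjusted p = 0.0231). SPARC was at 24.4, 41.0 and 60.9 CPM against 7.38, 3.31 and 12.5 CPM, 5.45-fold lower (log2 -2.45 ± 0.76, edgeR adjusted p = 0.0278). Neither gene's groups overlapped, yet each call was lost in 4 fits without 1 library: HSPG2 without siC_DMSO a or b or siYT_DMSO a or b (edgeR adjusted p up to 0.0942), and SPARC without siC_DMSO b or c or siYT_DMSO a or b (up to 0.0996). Leaving out siC_DMSO a, siC_DMSO b or siYT_DMSO b reduced the rising genes from 3 to 1, COL4A5, since HSPG2 and COL4A6 then missed the threshold. Over all genes 11.4%, 11.4% and 11.5% rose in those fits. NID1, at chr1:235975830-236065092, had counts in 5 of the 12 libraries, which were 15 in siC_DMSO c, 96 in siC_XMU b, 66 in siYT_DMSO a, 8 in siYT_XMU b and 4 in siYT_XMU c. It passed the low-count filter through these scattered libraries, so no fold is given (edgeR adjusted p = 0.353). A count of 0 allows up to 0.0382 to 0.622 CPM, depending on the library, counting error only.

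Ribosomal RNA was higher in 2 of the 3 siYT_DMSO libraries than in any control library, at 8.35% and 3.64%. In library c of siYT_DMSO it was 1.86%, within the control range. The part of ribosomal RNA in the changes was not tested. Beside the rise of COL4A5, COL4A6 and HSPG2, the 8 fibroblast markers summed to 24.2 to 70.3 CPM in siYT_DMSO against 11.4 to 24.3 in siC_DMSO, with 3 and 2 of 8 averaging at least 1 CPM. Their part in these rises was not tested. The 6 leukocyte markers summed to 83.7 to 153 against 44.1 to 61.3 CPM, with 2 of 6 averaging at least 1 CPM in both groups. Of these 2, CD68 went from 10.2 ± 3.63 to 78.8 ± 28.8 CPM and CD14 from 42.9 ± 8.59 to 30.6 ± 9.62 CPM. PTPRC, CD3E, LYZ and MS4A1 averaged at most 0.0773 CPM in either group. The 8 endothelial markers summed to 0.918 to 2.17 against 2.00 to 3.98 CPM.

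The second comparison repeats the knockdown in cells given XMU-MP1. Here 4 of the 10 genes fell and 3 rose, beside 18.6% and 17.7% of all 18143 genes (36.4% in either direction), and the groups did not overlap for 7 of the 10 against 45.6% of all genes. The median log2 fold change was -0.46, against 0.04 over all genes. All 7 called genes had also been called, in the same direction, in DMSO: COL4A1, COL4A2, LAMA5 and LAMB1 fell, and COL4A5, COL4A6 and HSPG2 rose. Without library c of siYT_XMU, 6 genes fell and 3 rose, beside 18.7% and 19.3% of the 19211 genes then tested. With library totals in place of TMM, 5 fell and 1 rose, beside 26.5% and 10.5% of all genes. Of the calls over all genes 28.3% were then rises, against 48.8% with TMM, and the median of all genes moved to -0.41.

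COL4A1 stood at 93.3, 78.3 and 103 CPM in siC_XMU, compared with 5.31, 5.84 and 15.1 CPM in siYT_XMU. It was 11.1-fold lower (log2 -3.47 ± 0.44, edgeR adjusted p = 0.000119), and 16.5-fold lower without library c, its highest knockdown library. COL4A2 went from 287, 287 and 322 to 34.3, 20.6 and 61.9 CPM, 7.78-fold lower (log2 -2.96 ± 0.38, edgeR adjusted p = 0.000118), and 10.9-fold without library c. For both genes even library c lay far below the lowest control library.

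COL4A5 rose 2.06-fold, from 34.6, 33.9 and 44.5 to 72.5, 76.0 and 84.5 CPM (log2 1.04 ± 0.17, edgeR adjusted p = 0.000514). COL4A6 rose 2.07-fold, from 28, 35.7 and 33.6 to 56.7, 65.7 and 79.6 CPM (log2 1.05 ± 0.19, edgeR adjusted p = 0.00144). Both rose without library c, by 1.97-fold and 1.88-fold. They missed the threshold with library totals in place of TMM, at log2 0.54 and 0.53 against an all-gene median of -0.41, and in both fits to FPKM, at 0.43 to 0.52. HSPG2 rose 2.55-fold, from 72.9, 72.0 and 64.0 to 130.3, 137 and 267 CPM (log2 1.35 ± 0.25, edgeR adjusted p = 0.00124), where 267 is library c. Without that library it rose 1.92-fold, and it stayed called in all 21 alternatives. Fibroblast markers summed to 23.7 to 138 CPM in siYT_XMU and 17.6 to 29.9 in siC_XMU, leukocyte markers to 69.8 to 201 against 20.1 to 29.5, and endothelial markers to 2.00 to 9.32 against 0.922 to 1.43. These sums include library c. Within siYT_XMU, the fibroblast marker COL1A2 was at 0 to 33.4 CPM and the leukocyte marker LYZ at 0 to 58.6 CPM. Both highest values were those of library c, which had 35% of its counts in ribosomal RNA. The leukocyte markers CD14 and CD68 averaged 33.7 ± 15.9 and 79.9 ± 29.9 CPM, against 10.1 ± 3.93 and 14.8 ± 3.78 in siC_XMU. The part of these markers was not tested.

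In this arm 2 of the 3 laminin chains were called. LAMB1 went from 116, 129 and 119.6 to 49.3, 41.7 and 84.5 CPM, 2.09-fold lower (log2 -1.06 ± 0.31, edgeR adjusted p = 0.0198), and LAMA5 from 299, 299 and 237 to 202, 202 and 209 CPM, 1.36-fold lower (log2 -0.45 ± 0.15, edgeR adjusted p = 0.0348). Neither overlapped, though both calls were lost without siC_XMU a or b or siYT_XMU a or b, which left 2 of the 4 fallen genes, COL4A1 and COL4A2. Over all genes 14.1% to 17% fell in those fits. LAMA5 was lost in 10 of 21 alternatives and LAMB1 in 5. LAMC1 was at 212, 238 and 241 against 131, 132 and 245 CPM and was not called (log2 -0.45 ± 0.24, edgeR adjusted p = 0.174). SPARC was at 27.1, 40.8 and 47.2 against 6.49, 12.2 and 66.7 CPM and was not called either (log2 -0.47 ± 0.73, edgeR adjusted p = 0.65). In both genes library c alone overlapped the controls. Without it LAMC1 was 1.76-fold lower (log2 -0.81, edgeR adjusted p = 0.00496) and SPARC 4.12-fold lower (log2 -2.04, edgeR adjusted p = 0.0175).

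**Figure D2:**
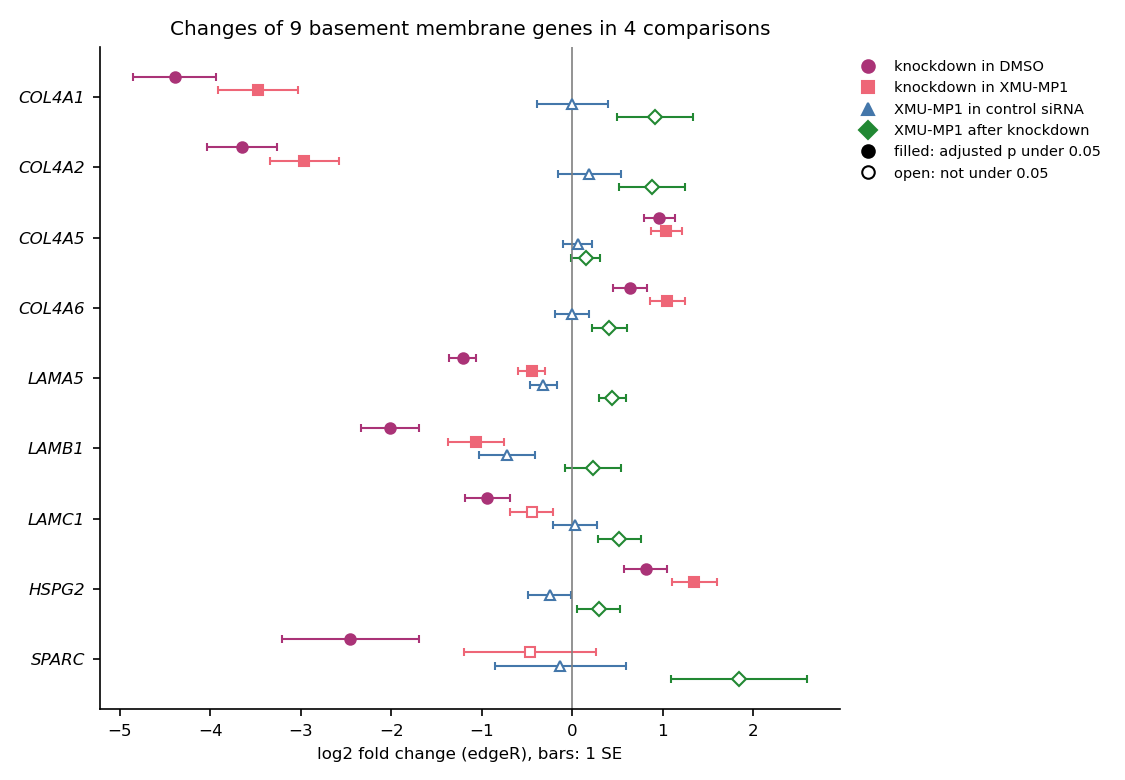
Log2 fold changes (edgeR) of 9 of the 10 genes in the 4 comparisons between groups, with bars of 1 SE; filled symbols have an adjusted p under 0.05. COL4A1 and COL4A2 lie at -4.39 to -2.96 in both knockdown comparisons, COL4A5, COL4A6 and HSPG2 lie above 0 in both, and no XMU-MP1 comparison has a filled symbol; NID1 is left out for its low counts.

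XMU-MP1 for 6 h changed none of the 10 genes past the threshold in cells with control siRNA. The edgeR test called 0 in each direction, beside 4.0% of all genes that rose and 5.26% that fell (9.26% in all), and 1 gene, LAMB1, had an unadjusted p under 0.05. DESeq2 also called 0, beside 7.19% of all genes that rose and 9.66% that fell, with 2 genes (LAMA5 and LAMB1) at an unadjusted p under 0.05. COL4A1 averaged 91.9 ± 34.3 CPM with DMSO and 91.6 ± 12.6 with XMU-MP1 (SD, n = 3). LAMB1 had the lowest estimate: its libraries lay at 187 to 215 CPM with DMSO and at 116 to 129 with XMU-MP1, a fold of 1.65 without overlap (log2 -0.72 ± 0.31, edgeR adjusted p = 0.185). It passed in the fit to these 6 libraries alone (log2 -0.70, edgeR adjusted p = 0.00359), and adjusted p ranged up to 0.372 over the 21 alternatives. LAMA5 did not overlap either, at 315 to 407 against 237 to 299 CPM (log2 -0.32 ± 0.15, edgeR adjusted p = 0.226). The groups did not overlap for 40.7% of all genes in this comparison.

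After knockdown, XMU-MP1 again brought no call. The count by edgeR was 0 in each direction beside 4.19% and 7.92% of all genes (12.1% in all), with 4 genes (COL4A1, COL4A2, LAMA5 and SPARC) at an unadjusted p under 0.05. DESeq2 called 2 as higher, LAMA5 and SPARC, beside 9.18% of all genes that rose and 10.8% that fell with DESeq2. The estimates of COL4A1 (log2 0.91 ± 0.42, edgeR adjusted p = 0.186), COL4A2 (0.88 ± 0.36, 0.137) and SPARC (1.84 ± 0.75, 0.141) rested on library c of siYT_XMU: without it they were 0.34, 0.39 and 0.27. LAMA5, at 158, 148 and 146 CPM with DMSO and 202, 202 and 209 with XMU-MP1, did not overlap (log2 0.44 ± 0.15, edgeR adjusted p = 0.0799), and its estimate was 0.42 without library c. Over the alternatives other than leaving out 1 library, the LAMA5 estimate ranged from 0.03 to 0.61. LAMA5 and COL4A6 were the 2 genes of the 10 whose groups did not overlap here, against 27.3% of all genes.

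The interaction asks whether the XMU-MP1 effect differed between the siRNA arms. None of the 10 genes passed (0 in each direction by edgeR, beside 0.860% and 1.73% of all genes, 2.59% in all), and 1 gene, LAMA5, had an unadjusted p under 0.05. DESeq2 called that gene as higher (DESeq2 adjusted p = 0.00459), beside 4.72% of all genes that rose and 5.1% that fell with DESeq2. In edgeR the LAMA5 difference was 0.76 ± 0.21 on the log2 scale, with an adjusted p of 0.0798 that ranged from 0.00459 to 0.488 over 20 alternatives. LAMB1 had a difference of 0.95 ± 0.44 (edgeR adjusted p = 0.276) and COL4A1 of 0.92 ± 0.57 (edgeR adjusted p = 0.434). The interval of these estimates is wide, and a p above the threshold does not show that the effects were equal.

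Chains that share a protomer or a trimer were also compared with each other inside each library. There the scaling of the library cancels, except through the constant added to the FPKM. The test was an exact two-sided permutation within the drug or siRNA arms on the log2 ratio of FPKM + 0.1, whose smallest p is 0.005, adjusted over 6 tests. The FPKM ratio of LAMB1 to LAMC1 was 1.09, 1.10 and 1.01 in siC_DMSO and 0.585, 0.341 and 0.559 in siYT_DMSO. With XMU-MP1 it was 0.656, 0.650 and 0.596 in siC_XMU and 0.454, 0.384 and 0.415 in siYT_XMU. Each knockdown group lay below its control, by 0.88 on the log2 scale on average (exact permutation p = 0.005, adjusted 0.03), in all 15 alternatives. LAMB1 thus fell more than LAMC1. The ratio was also lower with XMU-MP1, by 0.48 (exact permutation p = 0.02, adjusted 0.06), which missed the threshold. In the control arm, where every XMU-MP1 library lay below every DMSO library, the difference was -0.75, and after knockdown it was -0.21.

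For the collagen pairs no shift of the ratio passed as planned. COL4A5 to COL4A6 moved by 0.16 with knockdown and by -0.10 with XMU-MP1 (exact permutation, adjusted p = 0.28 and 0.414). The knockdown difference was 0.31 in DMSO, where every siYT_DMSO library lay above every siC_DMSO library, and 0.01 in XMU-MP1. COL4A1 to COL4A2 moved by -0.23 with knockdown (exact permutation p = 0.2, adjusted 0.3) and by -0.10 with XMU-MP1 (exact permutation p = 0.555, adjusted 0.555). The first of these depends on the pseudocount, because COL4A1 was at only 0.191 to 0.530 FPKM after knockdown. With a pseudocount of 0.01 it was -0.54 and on counts plus 0.5, an alternative chosen after seeing the data, -0.58 (exact permutation, adjusted p = 0.03 in both), while with a pseudocount of 1 it was 0.95 (exact permutation, adjusted p = 0.015). Without a pseudocount, the ratio of CPM per kb was 0.36, 0.256 and 0.403 in siC_DMSO and 0.168, 0.223 and 0.231 in siYT_DMSO, without overlap. It was 0.318, 0.267 and 0.315 in siC_XMU and 0.152, 0.278 and 0.239 in siYT_XMU, where library b overlapped the controls. The planned test does not settle whether COL4A1 fell more than COL4A2, since its pseudocount is large beside the COL4A1 FPKM after knockdown.

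**Figure D3:**
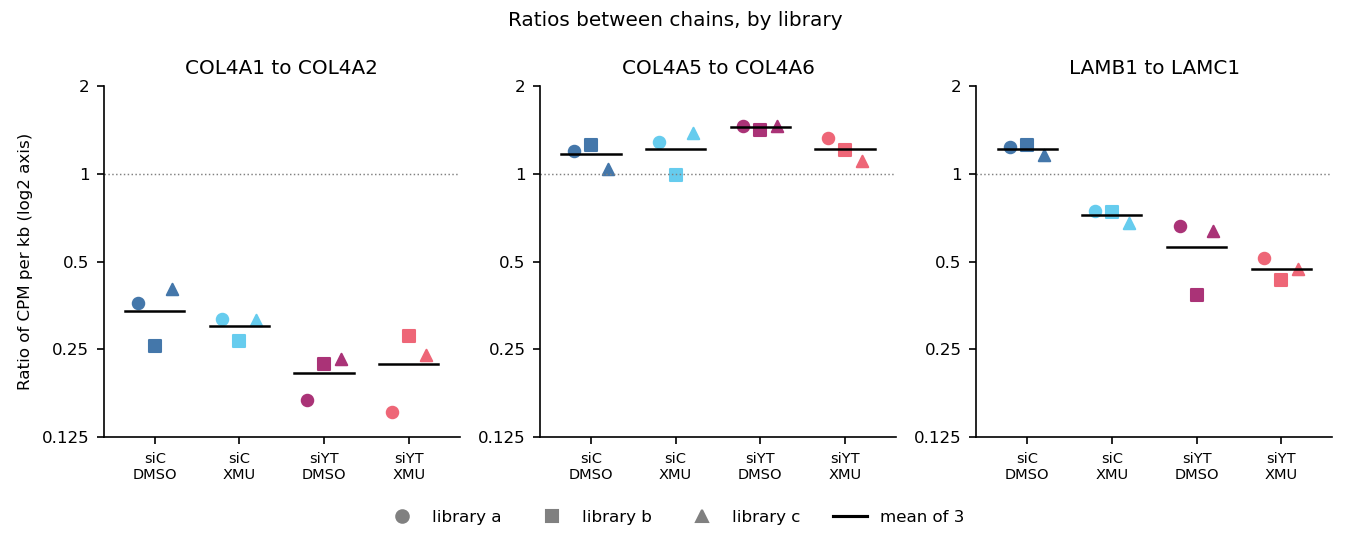
Ratios between chains in each library, as CPM per kb of the longest GENCODE coding transcript on a log2 axis, with the mean of 3 as a bar; the tests in the text used FPKM. LAMB1 to LAMC1 lies at 1.16 to 1.26 in siC_DMSO and at 0.383 to 0.747 in the other 3 groups, whereas COL4A5 to COL4A6 lies at 0.987 to 1.46 over all groups, with siYT_DMSO at 1.41 to 1.46 and siC_DMSO at 1.04 to 1.26.

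Among all genes of sufficient level, the 12-library pattern of COL4A1 was most like that of its neighbour. Likeness is the root mean square difference of centred log2 CPM over the 12 libraries, ranked over genes with a mean FPKM of at least 5. COL4A2 ranked first of 6797 for COL4A1 (0.39), followed by FBN2, a microfibril protein, at 0.47, FOXM1, a cell-cycle transcription factor, at 0.50, CMSS1 at 0.55 and CDCA3 at 0.56. For COL4A2 the closest were FANCI (0.33), PSIP1 (0.36), PARP1 (0.36), NSD2 (0.42) and TPX2 (0.42). COL4A1 was not ranked there, since its mean FPKM, computed with the long implied length, is under 5. Its difference from COL4A2 of 0.39 lies between those of PARP1 and NSD2. The laminin genes were closest to others: LAMB1 to GSDME and RCN1 (0.25 each), CTSZ, SPATS2L and DENND5A, and LAMC1 to STT3A (0.16), TLN1, SELENON, KHSRP and TPP2, with LAMA5 at rank 80 of 6796 for LAMC1. SPARC had no close partner. Its nearest genes were SRPX (0.60), TGFBI, ANPEP, AXL and MYADM (0.71), and LAMB1 ranked 14. The points of each pattern share the libraries and their depth.

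Genes beside the collagen pairs on the chromosome were looked up after the values had been seen. RAB20, 9856 bases beyond COL4A2, fell by 0.97 on the log2 scale in DMSO (edgeR adjusted p = 0.023), against 3.65 for COL4A2, and by 1.39 in XMU-MP1 (edgeR adjusted p = 0.00352), against 2.96. LOC105370361, 23728 bases beyond COL4A1, was not called (edgeR adjusted p = 0.349 and 0.286). ATG4A, 935 bases beyond COL4A6, rose by 0.98 in DMSO (edgeR adjusted p = 0.00578) but was at 0.13 in XMU-MP1 (0.698). NXT2, the nearest tested gene beyond COL4A5 but 838278 bases away, was not called in either. The antisense genes COL4A2-AS1 and COL4A2-AS2 had at most 8 and 0 counts in a library.

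The remaining matrix genes were read from lists, chosen with earlier results known, and the counts below are for the knockdown in DMSO unless XMU-MP1 is named. They are to be read beside the 16.0% of all genes that fell and the 16.1% that rose (32.1% in all), and in XMU-MP1 beside 18.6% and 17.7%. Without siYT_XMU c, 18.8% of all genes fell and 18.2% rose in DMSO, and 18.7% and 19.3% in XMU-MP1. Of the 7 other laminin chains tested, 1 rose, LAMA4, from 3.78 ± 1.13 to 15.5 ± 1.93 CPM (log2 2.03 ± 0.37, edgeR adjusted p = 0.00137), and without siYT_XMU c the count was also 1. The median was -0.20. LAMA3, at 367 ± 80.6 and 180 ± 111 CPM, and LAMB3, at 476 ± 78.0 and 389.5 ± 189.9 CPM, both named after their values were seen, were not called. In XMU-MP1, 2 of these 7 rose (3 without siYT_XMU c) and 0 fell.

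Of 14 other basement membrane protein genes, 5 fell and 2 rose (as many of 18 tested without siYT_XMU c), with a median of -0.17. PXDN, the peroxidasin that cross-links collagen IV, fell from 228 ± 28.7 to 49.9 ± 12.1 CPM (log2 -2.19 ± 0.19, edgeR adjusted p = 1.06e-05) and EFEMP1 from 61.7 ± 5.30 to 1.36 ± 0.751 CPM (-5.55 ± 0.57, 2.61e-05). FRAS1 (-1.79 ± 0.40), NTN4 (-1.93 ± 0.45) and FBLN1 fell too, and EFEMP2 and SMOC1 rose. FBLN1, EFEMP2 and SMOC1 are named after their values were seen. In XMU-MP1, 2 fell and 4 rose (3 and 3 of the 18 genes tested without siYT_XMU c), with PXDN and EFEMP1 again lower (log2 -1.81 ± 0.19 and -3.59 ± 0.53). NPNT, named after its values were seen, was among the 4, at 0 counts in siC_XMU and 0.641 ± 0.487 CPM in siYT_XMU, at least 12.2-fold higher against a floor of 3 counts per library.

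Of 22 genes for modifying, folding and exporting collagen chains, 11 fell and 1 rose (13 and 1 without siYT_XMU c), with a median of -0.67. CRTAP and P3H1, partners in prolyl 3-hydroxylation, went from 217 ± 6.92 to 82.9 ± 5.71 CPM (log2 -1.39 ± 0.13, edgeR adjusted p = 1.23e-05) and from 25.5 ± 9.19 to 4.10 ± 0.429 CPM (-2.64 ± 0.30, 5.01e-05). PLOD3 and COLGALT1, which hydroxylate lysine and add galactose to it, fell by 1.92 and 1.25 on the log2 scale (edgeR adjusted p = 0.000177 and 0.000194). FKBP10 was the 1 that rose, from 9.37 ± 2.69 to 17.9 ± 2.83 CPM. FKBP10 and P3H3 are named after their values were seen. P3H3 had 0 counts in siYT_DMSO against 0.991 ± 0.278 CPM, at least 12.8-fold lower. In XMU-MP1, 13 fell and 1 rose (12 and 2 without siYT_XMU c).

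Of 19 collagen and laminin receptor genes, 5 rose and 2 fell (5 and 4 without siYT_XMU c), with a median of 0.34, and 7 of 19 is a share near the 32.1% of all genes. The syndecans SDC4 and SDC1 went from 329 ± 81.9 to 1150.1 ± 223 CPM (log2 1.81 ± 0.27, edgeR adjusted p = 0.000351) and from 233 ± 14.7 to 423 ± 151 CPM (0.86 ± 0.25, 0.0184), and the collagen receptor DDR1 rose as well (0.80 ± 0.23, 0.0181). The genes that fell were ITGA1, the α chain of a collagen IV-binding integrin (-1.33 ± 0.33, edgeR adjusted p = 0.00921), and DAG1, which is named after its value was seen. ITGB1, also named afterwards, was at 498 ± 85.9 and 458 ± 151 CPM and was not called. In XMU-MP1, 6 rose and 2 fell (6 and 4 without siYT_XMU c). Of 18 interstitial matrix genes, 3 fell (COL12A1, log2 -5.28 ± 0.52, LOXL2, -2.68 ± 0.51, and VCAN, -2.93 ± 1.02) and 1 rose, BGN, whose level was 0.0340 ± 0.0589 and 1.6 ± 0.576 CPM, with a median of 0.29. That is 4 of 18, under the share of all genes, and without siYT_XMU c 4 fell and 2 rose. In XMU-MP1, 2 fell and 1 rose (3 and 0 without siYT_XMU c).

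**Figure D4:**
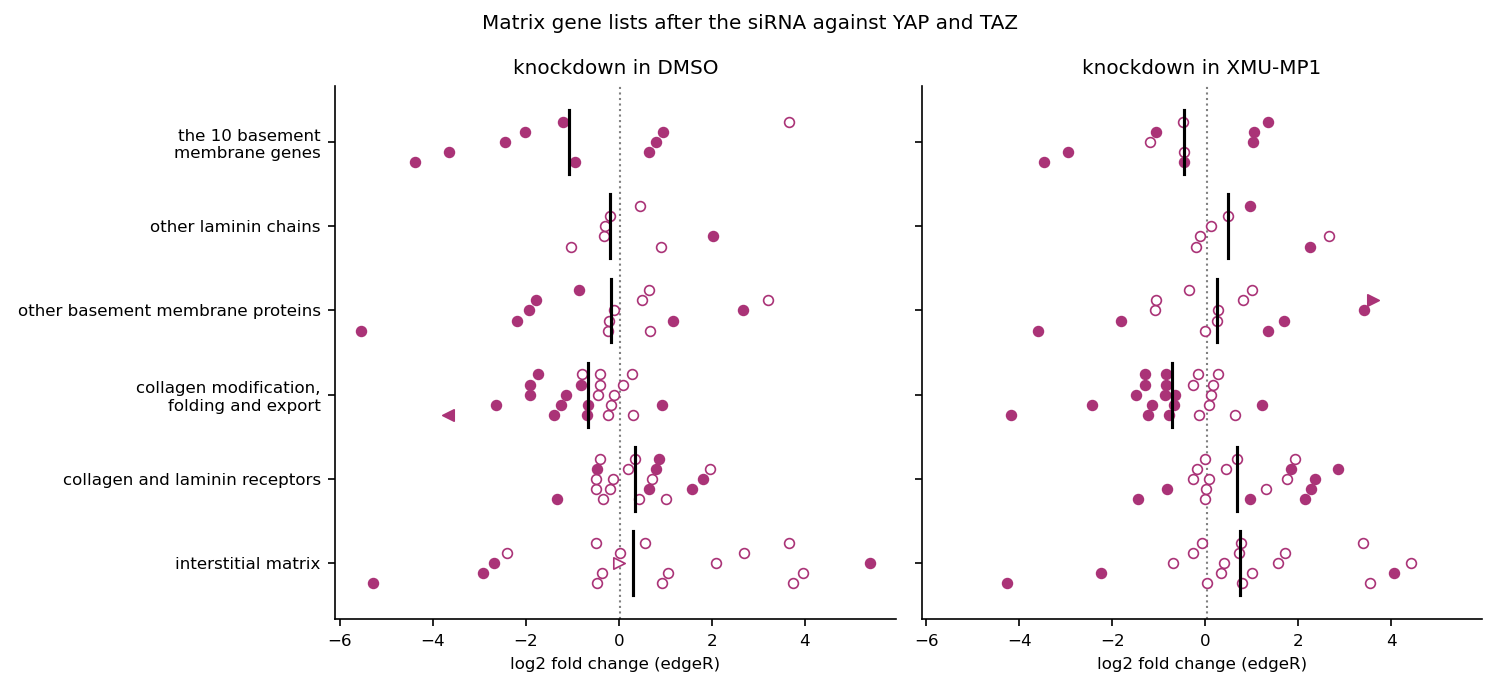
Log2 fold changes (edgeR) of the 10 basement membrane genes and of 5 lists in the 2 knockdown comparisons; 1 symbol is 1 tested gene, filled where the adjusted p is under 0.05, triangles are genes with a group at 0 counts drawn at their bound, black bars are list medians and dotted lines the median of all genes. Collagen modification genes have a median of -0.67 in DMSO and -0.71 in XMU-MP1, and receptors of 0.34 and 0.69.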

How the data were processed

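RNA was sequenced from 12 MCF10A libraries in 4 groups of 3. Per the labels' protocols, poly(A) RNA went into strand-marking libraries read from both ends. The submitters' processing notes name cutadapt, FastQC, HISAT2, StringTie, edgeR and the build GRCh38.p13. How reads were counted, and whether by strand, is not given in the sources used here. The authors deposited whole-number counts per gene, unscaled, and FPKM, with 1e-04 where the count is 0, per the file headers and values.

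Counts were analysed with edgeR 4.0.16 in R 4.3.3: filterByExpr (18143 genes kept), TMM scaling, quasi-likelihood fit of 4 group means to all 12 libraries (8 residual degrees of freedom), two-sided tests, Benjamini-Hochberg over all genes tested, called at an adjusted p under 0.05. SE is the size of the log2 fold change over the square root of F, and fold changes carry a prior count of 0.125. Levels are TMM-scaled CPM, divided by the length of the longest coding GENCODE v29 transcript to compare genes. FPKM served for ratios of chains and for limma 3.58.1 as an alternative. DESeq2 1.42.0 was another. The model was tested on simulated data.

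The 10 genes, the lists and the markers were chosen with earlier results of these data known. From each list up to 4 called genes with the smallest adjusted p are named, besides those said to be named later. Letters a, b and c were not treated as pairs in the main fit, since the labels do not say what they mark. Correlations of deviations between libraries of the same letter were -0.02 to 0.17, and 2 of 18 exceeded 0.1. The same letter nevertheless correlated best for 11 of 12 libraries, and a fit with the letter as a block was an alternative. Intervals and floors (3 counts for a count of 0) cover counting error only.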

Additional observations from a re-analysis of the deposited data

Results flagged for a closer look

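LAMA5 was the 1 gene of the 10 whose libraries separated in opposite directions under XMU-MP1 in the 2 siRNA arms. Its log2 fold change was -0.32 with control siRNA, where all XMU-MP1 libraries (237 to 299 CPM) lay below all DMSO libraries (315 to 407 CPM), and 0.44 after knockdown, where all XMU-MP1 libraries (202 to 209 CPM) lay above all DMSO libraries (146 to 158 CPM). The test of the difference missed the threshold (edgeR adjusted p = 0.0798). On the FPKM scale the knockdown libraries overlapped, at 12.4, 13.1 and 12.5 with DMSO and 15.4, 14.2 and 9.88 with XMU-MP1, the last being library c of siYT_XMU.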

How the results depend on the processing

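Each gene test was repeated under 21 settings (20 for the interaction, and fewer for NID1 where a filter removed it) and each ratio test under 15. Depth limits the members most in siYT_XMU c and at NID1. The falls in DMSO numbered 6 in the main fit and in every alternative that did not leave out 1 library. Without 1 library they numbered 4 to 6, beside 11.6% to 18.8% of all genes. The rises in DMSO numbered 3 in the main fit and 1 to 3 without 1 library (11.4% to 18.2% of all genes). They numbered 2 with library totals without TMM (10.5% of all genes) and 2 in both limma fits to FPKM (10.6% and 11.1%). In XMU-MP1 the rises numbered 1 with library totals without TMM (10.5% of all genes) and 1 in both limma fits to FPKM (9.46% and 9.18%). The falls there numbered 2 with the upper quartile (15.6% of all genes) and 2 to 6 without 1 library (13.4% to 18.7%). For XMU-MP1 in control siRNA, 1 gene fell in the fit to only the groups compared (13.1% of all genes). For XMU-MP1 after knockdown, 1 gene rose with a mean count of at least 50 (6.71% of all genes) and 2 with DESeq2 (9.18%). With the upper quartile it was 1 (6.78%), with the replicate block 1 (3.85%) and without 1 library 0 to 1 (1.94% to 6.65%). For the interaction 1 gene rose with a mean count of at least 50 (2.03% of all genes) and 1 with DESeq2 (4.72%).

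The labels do not say whether the letters pair the samples. For 11 of 12 libraries the highest mean correlation of deviations was with the same letter, a hint of pairing from the data. With the replicate block, COL4A1 was called after XMU-MP1 in the knockdown arm (log2 0.91, edgeR adjusted p = 0.0363) and LAMC1 in the knockdown with XMU-MP1 (-0.50, 0.0492). COL4A1 and COL4A6 under XMU-MP1 in control siRNA were at 0.07 and 0.01 with the block, and no other call changed.

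For the COL4A1 to COL4A2 ratio the knockdown difference of -0.23 was -0.54 with a pseudocount of 0.01, 0.95 with 1, -0.58 on counts plus 0.5 and -0.33 to -0.12 without 1 library, and the XMU-MP1 difference of -0.10 was -0.20 to 0.01 without 1 library. The XMU-MP1 difference of the LAMB1 to LAMC1 ratio passed with pseudocounts of 0.01 (-0.48) and 1 (-0.46), on counts plus 0.5 (-0.48) and in 1 fit without 1 library (range -0.60 to -0.41).

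Sign changes of single genes were of estimates not called in the main analysis, and of these SPARC in the knockdown with XMU-MP1 was called without siYT_XMU c. For XMU-MP1 in control siRNA, COL4A1 was at 0.02 with only the groups compared and -0.20 to 0.33 without 1 library. COL4A5 was at -0.02 without TMM, -0.02 and -0.02 on FPKM plus 0.1 and plus 1, and -0.08 to 0.13 without 1 library. COL4A6 was at 0.00 with a mean count of 50, 0.00 with the upper quartile, 0.02 with only the groups compared and -0.11 to 0.15 without 1 library. LAMC1 was at -0.05 without TMM, -0.04 and -0.04 on FPKM and -0.03 to 0.13 without 1 library. SPARC ranged from -0.41 to 0.23 and NID1 from -4.86 to 7.79 without 1 library. For XMU-MP1 after knockdown, without TMM and on FPKM plus 0.1 and plus 1, COL4A5 was at -0.25, -0.26 and -0.23, COL4A6 at -0.01, -0.01 and -0.01, LAMB1 at -0.21, -0.14 and -0.13 and HSPG2 at -0.17, -0.19 and -0.17, where the all-gene median without TMM was -0.33. Without 1 library, LAMB1 ranged from -0.12 to 0.53, HSPG2 from -0.12 to 0.47 and NID1 from -3.42 to 6.82. In the interaction COL4A5 was at -0.24, -0.23 and -0.21 under those 3 settings and -0.01 to 0.22 without 1 library, and NID1 ranged from -9.64 to 3.85. In the knockdown without 1 library, SPARC ranged from -2.04 to 0.00 in XMU-MP1, and NID1 from -4.94 to 8.48 in DMSO and -2.74 to 6.72 in XMU-MP1. Beyond what is given here, the causes of these changes were not tested.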

Other observations

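Library c was the highest of its group in all 4 groups for 5 of the 10 genes (COL4A1, COL4A2, COL4A5, LAMC1 and SPARC). Over all 18143 genes tested, library c was the highest in all 4 groups for 2.14%, library a for 3.58% and library b for 2.76%. This count was made after the values had been seen, and what the letters stand for is not stated.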
